A study of Homo sapiens with 8 samples.

Results

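The synthesis and storage of triglycerides were followed through 10 genes: GPAM, AGPAT2, LPIN1, LPIN2, DGAT1 and DGAT2 for synthesis, PNPLA2 and PNPLA3 for lipolysis, and PLIN2 and PLIN3 for the coat of lipid droplets. They were chosen by name for these roles, from the 60230 genes of the count table, with earlier results of these data known. The number of them that passed a threshold may therefore not be independent of these data. All 10 were found and passed the filter on low counts. The cells were HepG2, a human liver cancer cell line, transfected to overexpress the drug-metabolizing enzyme CYP2C19 and kept under blasticidin selection. They were treated for 24 h with compound 4 (metylcresol in the labels), compound 5 (tetrabut), compound 6 (cyclohexil), or DMSO as the solvent control, with 2 libraries in each of the 4 groups. The compounds are phenolic antioxidants of plastics. Compounds 4 and 6 are methylene-bridged bisphenols with a methyl group on each ring and differ in carrying tert-butyl or cyclohexyl groups, and compound 5 has an ethylidene bridge and carries tert-butyl groups also where the others have methyl groups. Each compound was given at its own IC50 for these cells, so the concentrations differed between compounds. The paper describes the IC50 values of the 3 compounds as rather comparable. They came from an assay with a longer exposure than the 24 h used for the RNA. The question of the study was whether such compounds are toxic to liver cells with CYP2C19. The names of the count columns mark replicate 1 of DMSO and replicate 1 of compound 4 as merged, and no other library. What was merged is not stated, and its part in the results was not tested. The labels name the replicates day 1 and day 2. They do not say that the replicates were separate cultures, so the p-values measure the spread between these libraries, which may be technical. All groups carry the CYP2C19 transgene and parental cells were not analysed here. In each comparison with DMSO the same 2 control libraries were used, so these 3 comparisons are not independent of each other.

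Triglycerides are built in the endoplasmic reticulum by adding fatty acids in turn to a glycerol-3-phosphate backbone. An acyltransferase adds the first fatty acid and another the second, a phosphatidate phosphatase (lipin) then removes the phosphate to give diacylglycerol, and a diacylglycerol acyltransferase (DGAT) adds the last fatty acid. The product is stored in lipid droplets, whose surface is covered by perilipins, and is released again by lipases of the patatin-like family. Hepatocytes store triglycerides in this way and also export them in lipoproteins.

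The libraries had total counts between 9791659 and 17814595. The 8 hepatocyte or HepG2 markers, which include ALB, were detected in every library at 63.9 CPM or more each. CPM are counts per 1000000 counts of the normalized library. The 8 markers summed to between 47386 and 51098 CPM in the DMSO libraries and between 33497 and 42490 CPM under the compounds. The means of ALB, APOB, AFP, TF and SERPINA1 were lower than in DMSO under every compound. The others went both ways, with higher means for TTR under compound 4, FGB under compound 5 and HNF4A under compounds 4 and 6. Of 12 markers of adipocytes, fibroblasts or stellate cells, endothelial cells and leukocytes, ADIPOQ, LEP, FABP4, CIDEA, LRAT and PTPRC were at 0 in every library, and the others except CD68 were at 0.568 CPM or less. The 12 summed to 20.9 to 25.4 CPM in DMSO, 39.3 to 40.5 CPM under compound 4, 20.7 to 26.8 CPM under compound 5 and 30.5 to 31.5 CPM under compound 6. Without CD68, a lysosomal protein also used as a macrophage marker, the sum was at most 1.22 CPM, and its part in the results was not tested. CYP2C19 itself was at 27.7 and 16.4 CPM in the DMSO libraries, 31.4 and 44.3 CPM under compound 4, 52.8 and 37.96 CPM under compound 5 and 23.9 and 21.2 CPM under compound 6.

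Genes were compared by edgeR's quasi-likelihood test, with p-values adjusted by the Benjamini-Hochberg method over all tested genes. Compared with DMSO, 6 of the 10 genes passed an adjusted p of 0.05 under compound 4, 5 of 10 under compound 5 and 0 of 10 under compound 6. Of all 13400 tested genes, 9.51% passed with compound 4, 8.3% with compound 5 and 0.575% with compound 6. The 3 genes LPIN2, PLIN2 and PLIN3 rose and DGAT2 and PNPLA3 fell under both compound 4 and compound 5, and DGAT1 fell under compound 4. Of all tested genes, 5.6% rose and 3.91% fell under compound 4, and 5.35% rose and 2.95% fell under compound 5. Both libraries of a compound lay outside the range of the DMSO libraries for 6, 7 and 6 of the 10 genes under compounds 4, 5 and 6, close to the shares of 58.4%, 59.5% and 55.4% over all tested genes. The median log2-fold change of the 10 genes was 0.05, 0.02 and 0.07 under compounds 4, 5 and 6, beside 0.01, 0.00 and 0.02 over all tested genes. Under compound 6, 4 of the 10 genes (LPIN2, DGAT1, PNPLA3 and PLIN3) had an unadjusted p below 0.05, as had 2490 of the 13400 genes. LPIN2 and DGAT1 passed for compound 6 by DESeq2 (adjusted p = 0.015 and 0.021), where 518 of all genes passed. In a fit of only the DMSO and compound 6 libraries, LPIN2, DGAT1 and PNPLA3 passed (adjusted p = 0.015, 0.016 and 0.0096). In that fit 1023 of 12998 genes passed. Without DMSO replicate 1 or 2 the count fell to 2 and 0 for compound 4 and to 2 and 1 for compound 5. It was 3 and 1 for compound 4 without compound 4 replicate 1 or 2, and 2 for compound 5 without compound 5 replicate 1. Over all genes the calls also became fewer in these fits. Under compound 4, 1275 calls became 390 and 43 without DMSO replicates 1 and 2, and 922 and 152 without compound 4 replicates 1 and 2. Under compound 5, 1112 calls became 77 and 46 without DMSO replicates 1 and 2, and 118 without compound 5 replicate 1. In RNA from whole cultures, fewer expressing cells and less RNA per cell cannot be told apart.

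**Figure D1:**
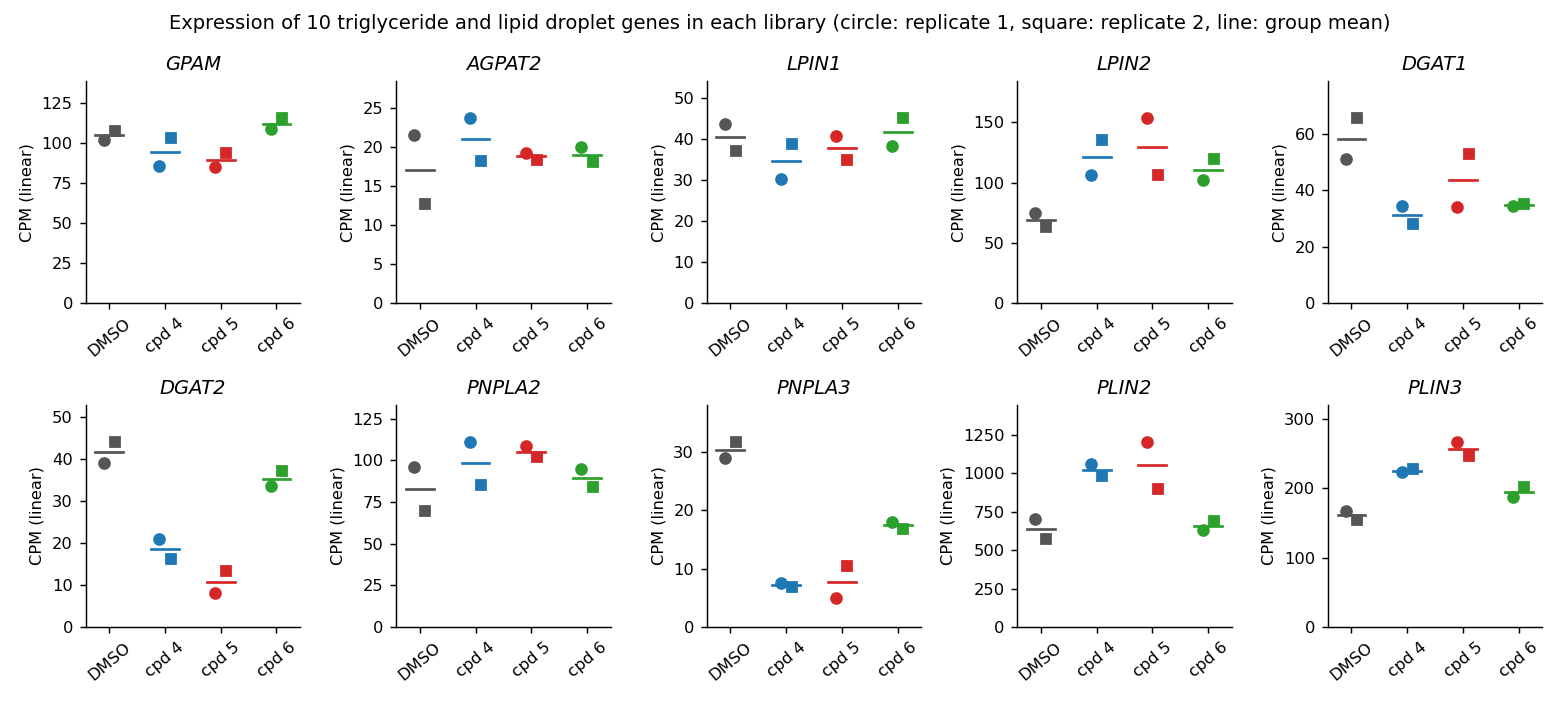
Expression in CPM (linear axes starting at 0) of the 10 genes in each library of the 4 groups, with circles for replicate 1, squares for replicate 2 and a line at the mean of each group. The libraries of compounds 4 and 5 lie above both DMSO libraries for LPIN2, PLIN2 and PLIN3 and below them for DGAT2 and PNPLA3, while under compound 6 PLIN2 overlaps with DMSO.

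In the DMSO libraries the order of the genes was set by the level per length, as CPM per kb of exon. PLIN2 was highest at 126 ± 18.2 (SD, n = 2), followed by PLIN3 at 57.2 ± 3.24 and PNPLA2 at 21.5 ± 4.95. DGAT1 came next at 14.1 ± 2.51. GPAM (10.7 ± 0.416), LPIN2 (10.1 ± 1.18), AGPAT2 (9.52 ± 3.46) and PNPLA3 (9.40 ± 0.598) could not be fully ordered. The libraries of LPIN2 and AGPAT2 overlapped with those of each of the others, while both GPAM libraries were above both PNPLA3 libraries. DGAT2 was at 5.26 ± 0.447 and LPIN1 was lowest at 3.41 ± 0.392. The length is the union of annotated exons and not that of the transcripts expressed, and the order depends on it. By mean CPM without the length, DGAT2 (41.5) and LPIN1 (40.5) were above PNPLA3 (30.4) and AGPAT2 (17.1).

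Of the 10 genes, those for the first steps of synthesis, GPAM and AGPAT2, did not pass the threshold under any compound. Among 5 other tested acyltransferases of these steps, described below, GPAT3 rose under compounds 4 and 5 and GPAT4 under compound 4. GPAM (chromosome 10, 112149864 to 112215377, minus strand, GRCh38), the mitochondrial acyltransferase for the first fatty acid, was at 102 and 107 CPM in the DMSO libraries, 85.7 and 103 CPM under compound 4, 85.04 and 93.4 CPM under compound 5 and 108 and 115 CPM under compound 6. Its log2-fold change was −0.15 under compound 4 (95% confidence interval from −0.41 to 0.12, adjusted p = 0.47), −0.23 under compound 5 (from −0.49 to 0.04, adjusted p = 0.24) and 0.10 under compound 6 (from −0.17 to 0.36, adjusted p = 0.7). Both libraries of compound 5 were below both DMSO libraries and both of compound 6 were above them. AGPAT2 (chromosome 9, 136673143 to 136687423, minus strand) adds the second fatty acid to lysophosphatidate. It was at 21.5 and 12.7 CPM in the DMSO libraries, 23.7 and 18.2 CPM under compound 4, 19.3 and 18.4 CPM under compound 5 and 20.01 and 18.1 CPM under compound 6. The DMSO libraries enclosed those of compounds 5 and 6, and lay further apart than the replicates of any compound. The log2-fold changes of AGPAT2 were 0.30, 0.15 and 0.16 under compounds 4, 5 and 6, with adjusted p = 0.44, 0.7 and 0.74, and the interval was from −0.21 to 0.81 for compound 4.

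Of the lipins, LPIN2 rose under compounds 4 and 5, and LPIN1 did not pass the threshold. LPIN2 (chromosome 18, 2916994 to 3013315, minus strand), a phosphatidate phosphatase prominent in liver, was at 74.6 and 63.3 CPM in the DMSO libraries, 107 and 135 CPM under compound 4, 153 and 106 CPM under compound 5 and 102 and 119.6 CPM under compound 6. All 6 treated libraries were above both DMSO libraries. LPIN2 rose 1.76-fold under compound 4 (log2-fold change 0.81 ± 0.19 (SE), adjusted p = 0.029) and 1.88-fold under compound 5 (log2-fold change 0.91 ± 0.19 (SE), adjusted p = 0.023), and the value for compound 6 did not pass the threshold (log2-fold change 0.68 ± 0.19 (SE), adjusted p = 0.11). LPIN1 (chromosome 2, 11677595 to 11827409, plus strand), its paralogue, was at 43.8 and 37.2 CPM in the DMSO libraries, 30.4 and 38.9 CPM under compound 4, 40.9 and 34.9 CPM under compound 5 and 38.3 and 45.2 CPM under compound 6. The treated libraries of LPIN1 overlapped with DMSO for each compound, and the log2-fold changes were −0.22, −0.10 and 0.05 with adjusted p = 0.42, 0.73 and 0.91. The compound 4 call of LPIN2 was lost without DMSO replicate 1 (0.93, 0.079), DMSO replicate 2 (0.70, 0.23) or compound 4 replicate 2 (0.63, 0.18), given as log2-fold change and adjusted p, and the compound 5 call without DMSO replicate 1 (1.02, 0.09), DMSO replicate 2 (0.80, 0.17) or compound 5 replicate 1 (0.61, 0.14).

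At the last step of synthesis, DGAT2 fell under compounds 4 and 5 and DGAT1 fell under compound 4. DGAT2 (chromosome 11, 75759512 to 75801535, plus strand), which joins fatty acids to diacylglycerol and is linked to triglycerides made from newly synthesized fatty acids, was at 39.05 and 44.05 CPM in the DMSO libraries, 20.9 and 16.1 CPM under compound 4, 8.07 and 13.2 CPM under compound 5 and 33.5 and 37.04 CPM under compound 6. The libraries of compounds 4 and 5 were all below the DMSO libraries, and those of compound 5 were also below those of compound 4. DGAT2 fell under compound 4 (log2-fold change −1.17 ± 0.21 (SE), adjusted p = 0.012) to 0.444 of its DMSO level and under compound 5 (log2-fold change −1.95 ± 0.22 (SE), adjusted p = 0.0031) to 0.260 of it. Under compound 6 the log2-fold change of DGAT2 was −0.24 (95% confidence interval from −0.70 to 0.22, adjusted p = 0.57). The compound 4 call of DGAT2 was lost without DMSO replicate 2 (−1.08, 0.12) or compound 4 replicate 2 (−0.99, 0.1), while the compound 5 call held in each of the 14 other settings that were run.

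DGAT1 (chromosome 8, 144314584 to 144326910, minus strand), an unrelated enzyme that carries out the same reaction, was at 50.8 and 65.5 CPM in the DMSO libraries, 34.3 and 27.9 CPM under compound 4, 34.2 and 52.8 CPM under compound 5 and 34.2 and 35.2 CPM under compound 6. Both libraries of compound 4 and both of compound 6 were below DMSO, and replicate 2 of compound 5 was above DMSO replicate 1. DGAT1 fell under compound 4 (log2-fold change −0.91 ± 0.21 (SE), adjusted p = 0.029), to 0.533 of DMSO. Its values under compound 5 (log2-fold change −0.42 ± 0.21 (SE), adjusted p = 0.21) and compound 6 (log2-fold change −0.75 ± 0.21 (SE), adjusted p = 0.12) did not pass the threshold. The DGAT1 call was lost without DMSO replicate 1 (−1.08, 0.054), DMSO replicate 2 (−0.71, 0.23), compound 4 replicate 1 (−1.08, 0.05) or compound 4 replicate 2 (−0.76, 0.18), where 0.05 is the rounded value, and compound 5 passed without its replicate 2 (log2-fold change −0.77, adjusted p = 0.036). DGAT1 shares 139 exon bases with HSF1 on the opposite strand, and whether the quantification used the strand is not given in the sources used here.

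Of the lipases, PNPLA3 (chromosome 22, 43923739 to 43964488, plus strand), a droplet protein known for a common variant associated with fatty liver, fell under compounds 4 and 5. PNPLA3 was at 29.004 and 31.7 CPM in the DMSO libraries, 7.51 and 6.92 CPM under compound 4, 4.94 and 10.4 CPM under compound 5 and 17.95 and 16.9 CPM under compound 6. All 6 treated libraries were below DMSO. PNPLA3 fell under compound 4 (log2-fold change −2.08 ± 0.27 (SE), adjusted p = 0.0043) to 0.237 of its DMSO level and under compound 5 (log2-fold change −1.95 ± 0.26 (SE), adjusted p = 0.0056) to 0.258 of it. Under compound 6 its log2-fold change was −0.80 (95% confidence interval from −1.37 to −0.24, adjusted p = 0.15). The calls of PNPLA3 were lost without DMSO replicate 2, with a log2-fold change of −2.01 and adjusted p = 0.055 for compound 4 and −1.89 and 0.061 for compound 5. PNPLA3 had between 60 and 379 counts, and 148 of its exon bases are shared with SAMM50 on the same strand, which had between 636 and 1187 counts.

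PNPLA2 (chromosome 11, 818902 to 825573, plus strand), adipose triglyceride lipase, which starts the breakdown of stored triglycerides, was at 96.2 and 69.3 CPM in the DMSO libraries, 111 and 85.1 CPM under compound 4, 109 and 102 CPM under compound 5 and 94.8 and 83.9 CPM under compound 6. Both libraries of compound 5 were above both DMSO libraries, and the other compounds overlapped with DMSO. No value of PNPLA2 passed the threshold: the log2-fold change was 0.25 (from −0.14 to 0.63) under compound 4, 0.35 (from −0.04 to 0.73) under compound 5 and 0.11 (from −0.28 to 0.50) under compound 6, with adjusted p = 0.4, 0.21 and 0.77.

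Both genes of the droplet coat rose under compounds 4 and 5. PLIN2 (chromosome 9, 19108375 to 19149290, minus strand), the main perilipin of hepatocyte droplets, was at 704 and 573 CPM in the DMSO libraries, 1059 and 986 CPM under compound 4, 1207 and 901 CPM under compound 5 and 629 and 688 CPM under compound 6. The compound 4 and 5 libraries were above both DMSO libraries, and the compound 6 libraries lay between the DMSO libraries. PLIN2 rose 1.60-fold under compound 4 (log2-fold change 0.68 ± 0.15 (SE), adjusted p = 0.025) and 1.65-fold under compound 5 (log2-fold change 0.72 ± 0.15 (SE), adjusted p = 0.023), and its log2-fold change under compound 6 was 0.04 (95% confidence interval from −0.29 to 0.38, adjusted p = 0.91). The compound 4 call of PLIN2 was lost without DMSO replicate 1 (0.83, 0.053), DMSO replicate 2 (0.54, 0.22), compound 4 replicate 1 (0.61, 0.085) or compound 4 replicate 2 (0.73, 0.099), and the compound 5 call without DMSO replicate 1 (0.87, 0.076), DMSO replicate 2 (0.59, 0.17) or compound 5 replicate 1 (0.49, 0.16).

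PLIN3 (chromosome 19, 4838341 to 4867768, minus strand), a perilipin that moves from the cytosol to newly formed droplets, was at 167 and 155 CPM in the DMSO libraries, 223 and 228 CPM under compound 4, 267 and 246 CPM under compound 5 and 187 and 202 CPM under compound 6. The treated libraries were above both DMSO libraries for each compound, lowest under compound 6. PLIN3 rose 1.40-fold under compound 4 (log2-fold change 0.49 ± 0.10 (SE), adjusted p = 0.02) and 1.59-fold under compound 5 (log2-fold change 0.67 ± 0.10 (SE), adjusted p = 0.0085), and the value for compound 6 did not pass the threshold (log2-fold change 0.28 ± 0.10 (SE), adjusted p = 0.19). The compound 4 call of PLIN3 was lost without DMSO replicate 1 (0.54, 0.075), DMSO replicate 2 (0.43, 0.2), compound 4 replicate 1 (0.49, 0.051) or compound 4 replicate 2 (0.47, 0.11), and the compound 5 call without DMSO replicate 1 (0.72, 0.064), DMSO replicate 2 (0.62, 0.1) or compound 5 replicate 1 (0.60, 0.061).

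**Figure D2:**
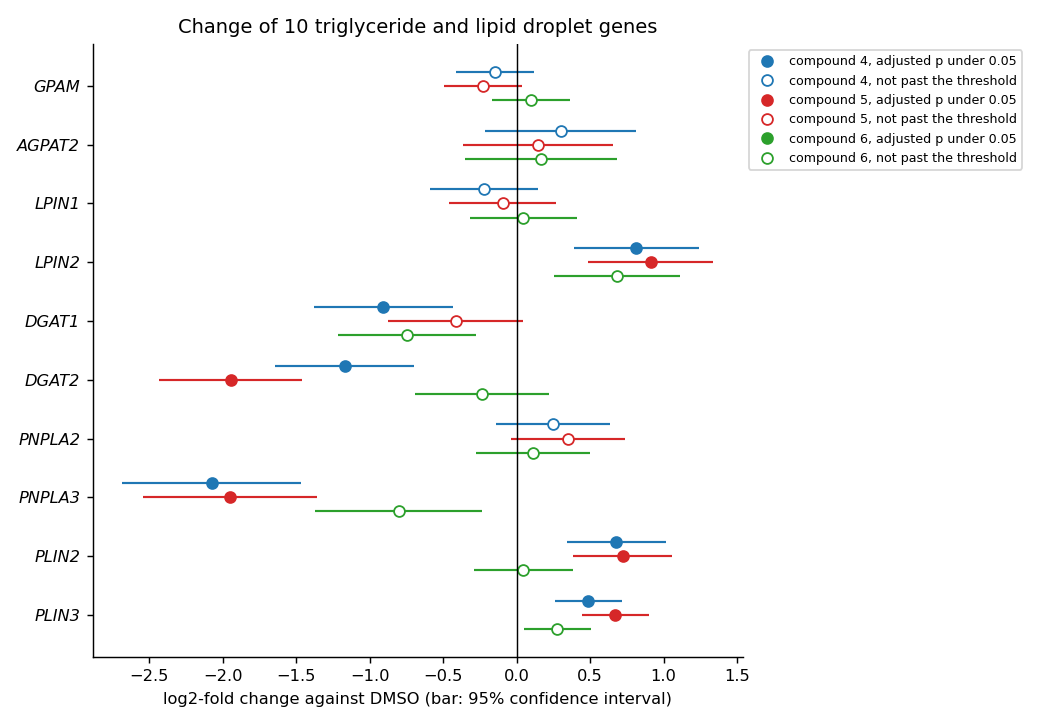
Log2-fold change of the 10 genes against DMSO (horizontal axis) under compounds 4, 5 and 6, with 95% confidence intervals as bars; filled points passed an adjusted p of 0.05 and open points did not. DGAT2 and PNPLA3 lie furthest to the left for compounds 4 and 5, LPIN2, PLIN2 and PLIN3 lie to the right, and no point of compound 6 is filled.

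The promoters of the 3 genes that rose under both compounds were compared by sequence. The sequences are those of RefSeq on GRCh38.p14, for the 250 bases upstream of each start, and only the stretch outside the exons of GENCODE 29 is shown. The searched letters are in capitals on either strand: the E-box CACGTG, the sterol response element core TCACNCCAC, the CCAAT box CCAAT, the GC box GGGCGG and the nuclear receptor half-site AGGTCA. Promoters of 7 of the 10 genes were searched, and for LPIN2 the more upstream of its 2 starts is shown, since the other held none of these letters.
LPIN2, chr18:3013316-3013394, minus strand: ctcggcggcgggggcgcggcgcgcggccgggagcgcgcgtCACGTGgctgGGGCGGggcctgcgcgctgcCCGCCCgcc
PLIN2, chr9:19127577-19127742, minus strand: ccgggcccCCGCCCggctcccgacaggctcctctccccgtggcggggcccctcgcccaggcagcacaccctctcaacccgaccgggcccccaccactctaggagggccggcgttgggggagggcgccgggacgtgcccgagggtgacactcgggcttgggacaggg
PLIN3, chr19:4867769-4867917, minus strand: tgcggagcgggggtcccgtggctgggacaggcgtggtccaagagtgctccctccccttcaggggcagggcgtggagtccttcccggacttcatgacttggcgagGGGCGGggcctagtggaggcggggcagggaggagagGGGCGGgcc

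The LPIN2 stretch holds 1 E-box, 210 to 205 bases upstream of the start, and PLIN2 has 1 E-box from 69 to 64 bases upstream of its RefSeq start, in a stretch that GENCODE 29 counts as exon and that is not printed. An E-box was found in 6.3% of the 35116 promoters searched in the same way. The PLIN3 window held 1 CCAAT box, 77 to 73 bases upstream, also in the part not printed, and CCAAT was found in 32.0% of promoters. GC boxes, present in 42.6% of promoters, were found in all 3 stretches, and in the windows of GPAM, AGPAT2, LPIN1 and PNPLA2. The sterol response element core, found in 0.9% of promoters, and the half-site, found in 12.1%, matched only PNPLA2 among the members searched, at 153 to 145 and 239 to 234 bases upstream. The promoters of DGAT1, DGAT2 and PNPLA3 were not searched here. These matches describe the letters in the window and were not tested against the expression values.

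Within a library, the ratio of the counts of a pair of genes does not depend on the scaling. The ratio of LPIN1 to LPIN2 counts was 0.587 and 0.587 in the DMSO libraries, 0.285 and 0.287 under compound 4, 0.267 and 0.329 under compound 5 and 0.376 and 0.378 under compound 6. It was lower in every treated library than in DMSO, and lowest under compounds 4 and 5. The ratio of DGAT1 to DGAT2 counts was 1.30 and 1.49 in the DMSO libraries, 1.64 and 1.73 under compound 4, 4.23 and 3.996 under compound 5 and 1.02 and 0.951 under compound 6. Here the compounds parted, with the compound 5 libraries above all others and the compound 6 libraries below DMSO.

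The ratio of PNPLA2 to PNPLA3 counts was 3.32 and 2.18 in the DMSO libraries, 14.8 and 12.3 under compound 4, 21.97 and 9.79 under compound 5 and 5.28 and 4.98 under compound 6. All treated libraries were above DMSO, and the replicates of compound 5 lay apart by more than those of any other group. The ratio of PLIN2 to PLIN3 counts was 4.21 and 3.71 in the DMSO libraries, 4.74 and 4.33 under compound 4, 4.52 and 3.66 under compound 5 and 3.36 and 3.40 under compound 6. It was lower under compound 6 than in either DMSO library, and compound 5 overlapped with DMSO. These ratios were not tested, and they are of counts, so they do not compare the levels of genes of different length.

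**Figure D3:**
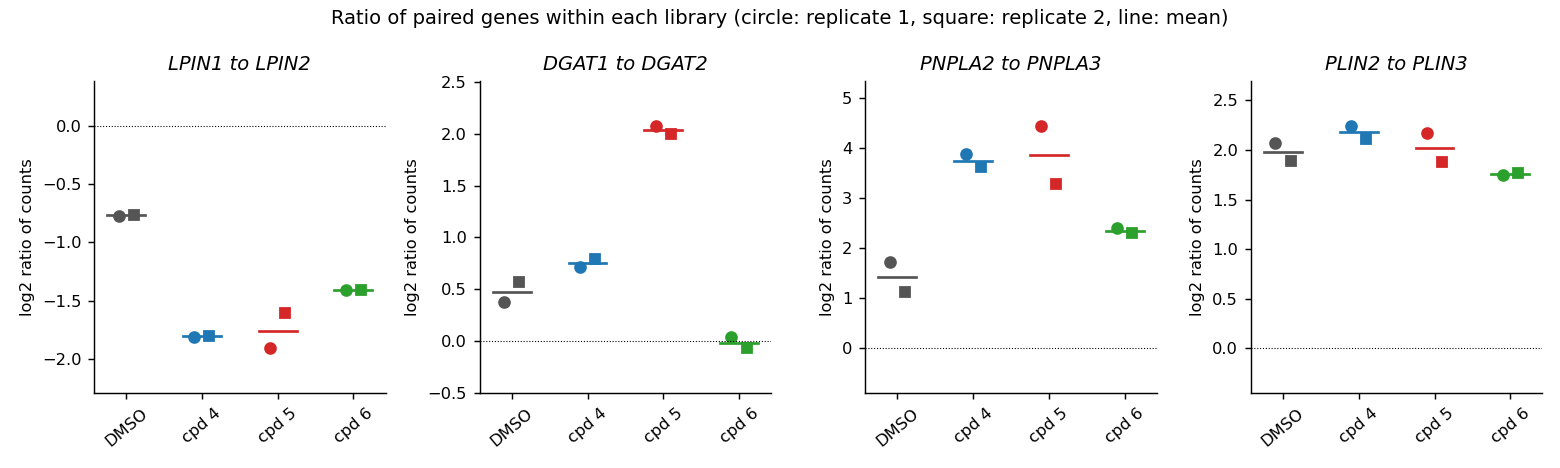
Log2 ratio of the counts of 4 gene pairs in each library of the 4 groups, with circles for replicate 1, squares for replicate 2, a line at the mean of each group and a dotted line at equal counts. The mean log2 ratio of DGAT1 to DGAT2 was 2.04 under compound 5 and −0.02 under compound 6, beside 0.48 in DMSO.

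The compounds were also compared directly, in 3 pairs and at their different concentrations, with p-values adjusted over the 13400 genes of each pair. Compound 6 differed from compound 5 in 1 of the 10 genes, beside 1.03% of all genes. This was DGAT2, which was 3.27-fold higher under compound 6 (log2-fold change 1.71 ± 0.22 (SE), adjusted p = 0.011), and the call was lost without compound 6 replicate 1 (1.78, 0.094) or compound 6 replicate 2 (1.63, 0.067). PLIN2 was lower under compound 6 than under compound 5 by an amount that did not pass the threshold (log2-fold change −0.68 ± 0.15 (SE), adjusted p = 0.066), and blocking on the replicate number gave an adjusted p of 0.041. PNPLA3 (log2-fold change 1.15 ± 0.27 (SE), adjusted p = 0.074) and PLIN3 (log2-fold change −0.40 ± 0.10 (SE), adjusted p = 0.089) did not pass either. Without compound 5 replicate 2, the log2-fold change was 1.81 for PNPLA3 and −0.88 for PLIN2. With DESeq2, 370 of all genes passed, among them DGAT2, PNPLA3, PLIN2 and PLIN3. The intervals for LPIN2 (from −0.65 to 0.19) and DGAT1 (from −0.80 to 0.14) included 0.

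Compounds 4 and 6, which differ in tert-butyl against cyclohexyl groups, had 0 of the 10 genes past the threshold, as had 0% of all genes by edgeR, with 3 of the 10 and 945 of all genes at an unadjusted p below 0.05. With the Wald test of DESeq2, 60 genes passed, among them 3 of the 10. These 3 were DGAT2, PNPLA3 and PLIN2. The log2-fold change of compound 4 against compound 6 by edgeR was −0.93 ± 0.21 (SE) for DGAT2 (95% confidence interval from −1.41 to −0.46), −1.27 ± 0.28 for PNPLA3 (from −1.89 to −0.65) and 0.64 ± 0.15 for PLIN2 (from 0.30 to 0.97), with adjusted p = 0.3, 0.3 and 0.34. PNPLA3 passed without compound 5 replicate 1 (−1.27, adjusted p = 0.034) or replicate 2 (−1.27, adjusted p = 0.031), fits in which 10 and 13 of all genes passed. For LPIN2 the interval was from −0.29 to 0.55, for DGAT1 from −0.64 to 0.32 and for PLIN3 from −0.02 to 0.44, so that differences of these sizes in either direction were not resolved.

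Compounds 4 and 5 also had 0 of the 10 genes past the threshold by edgeR, beside 0.313% of all genes, with 2 of the 10 and 2177 of all genes at an unadjusted p below 0.05. With DESeq2, 0 of the 10 passed, beside 194 of 12432 genes. DGAT2 was higher under compound 4 by 0.78 ± 0.22 (SE) on the log2 scale (95% confidence interval from 0.28 to 1.27, adjusted p = 0.16) and DGAT1 was at −0.49 ± 0.21 (from −0.96 to −0.02, adjusted p = 0.29). The intervals for PNPLA3 (from −0.76 to 0.51), LPIN2 (from −0.52 to 0.32), PLIN2 (from −0.38 to 0.29) and PLIN3 (from −0.41 to 0.04) included 0.

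The wider pathway was described with 64 further genes, of which 51 were tested. Of these, 9 passed the threshold under compound 4 (4 higher, 5 lower), 10 under compound 5 (5 higher, 5 lower) and 0 under compound 6 by edgeR, where 9.51%, 8.3% and 0.575% of all genes passed. For compound 6 there were 16 genes at an unadjusted p below 0.05, beside 2490 of all genes. With DESeq2, 3 passed, beside 518 of all genes. The medians of the 51 log2-fold changes were −0.05, −0.09 and −0.04. GPAT2, CIDEA, MGLL, PNPLA1 and PNPLA5 had 0 counts in every library, which allows up to 0.307 CPM in the smallest library by counting error alone, and LIPE, hormone-sensitive lipase, had at most 1 count.

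Of the 5 tested acyltransferases of the first steps, 2 were higher under compound 4, 1 under compound 5 and 0 lower. GPAT3, an acyltransferase of the endoplasmic reticulum for the first fatty acid, was at 29.6 and 31.9 CPM in the DMSO libraries, 59.2 and 87.1 CPM under compound 4, 86.3 and 65.1 CPM under compound 5 and 51.9 and 83.2 CPM under compound 6. All treated libraries were above both DMSO libraries. GPAT3 rose under compound 4 (log2-fold change 1.25 ± 0.25 (SE), adjusted p = 0.018) and compound 5 (log2-fold change 1.30 ± 0.25 (SE), adjusted p = 0.018), and did not pass under compound 6 (log2-fold change 1.13 ± 0.25 (SE), adjusted p = 0.069), where DESeq2 gave an adjusted p of 0.00024 and the fit of only the 4 libraries compared 0.015. GPAT4, its paralogue, rose under compound 4 (log2-fold change 0.44 ± 0.11 (SE), adjusted p = 0.038), with adjusted p = 0.055 under compound 5. Of 5 tested lipid phosphatases and monoacylglycerol acyltransferases, 2 fell under compound 5. These were MOGAT2 (log2-fold change −0.81 ± 0.16 (SE), adjusted p = 0.017) and MOGAT3 (log2-fold change −0.68 ± 0.17 (SE), adjusted p = 0.043), which make diacylglycerol from monoacylglycerol. The MOGAT3 call was lost with DESeq2 (adjusted p = 0.06) and in the fit of only the 4 libraries compared (adjusted p = 0.065). Blocking on the replicate number called GPAT4 under compound 5 and MOGAT2 under compound 4 (adjusted p = 0.048 for each), where MOGAT2 had adjusted p = 0.067 without the block.

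Of 10 genes for fatty acid activation and transport, 2 fell under compound 4 and 0 passed under compound 5. FABP1, the fatty acid binding protein of the liver, was at 431 and 332 CPM in the DMSO libraries, 219 and 95.7 CPM under compound 4, 239.7 and 222 CPM under compound 5 and 279 and 173 CPM under compound 6. It fell under compound 4 (log2-fold change −1.28 ± 0.34 (SE), adjusted p = 0.044), where its replicates lay apart by more than in the other groups, and its adjusted p was 0.07 with DESeq2. The call was lost without DMSO replicate 1 (−1.08, 0.17), DMSO replicate 2 (−1.46, 0.15) or compound 4 replicate 2 (−0.80, 0.17), as log2-fold change and adjusted p. ACSL6, an acyl-CoA synthetase at a level of 3.18 CPM or less, fell as well (log2-fold change −1.43 ± 0.35 (SE), adjusted p = 0.034), with adjusted p = 0.15 by DESeq2. Of 12 tested proteins of droplet coat and assembly, TMT1B fell under compound 4 (log2-fold change −0.91 ± 0.22 (SE), adjusted p = 0.035) and AUP1 rose under compound 5 (log2-fold change 0.60 ± 0.11 (SE), adjusted p = 0.013).

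Of 4 tested lipases and lipase regulators, CES1, a carboxylesterase of the endoplasmic reticulum, rose under compound 4 (log2-fold change 0.61 ± 0.13 (SE), adjusted p = 0.023) and compound 5 (log2-fold change 0.62 ± 0.13 (SE), adjusted p = 0.024), and PNPLA4 fell under compound 5 (log2-fold change −0.62 ± 0.16 (SE), adjusted p = 0.047). The PNPLA4 call was lost with DESeq2 (adjusted p = 0.091) and in the fit of only the 4 libraries compared (adjusted p = 0.068). CES1 was at 123 and 112 CPM in the DMSO libraries, 189 and 169 CPM under compound 4, 202 and 158 CPM under compound 5 and 167 and 163 CPM under compound 6. In the branch to phospholipids 1 of 7 genes passed under compounds 4 and 5, and it was PCYT2, an enzyme of phosphatidylethanolamine synthesis. PCYT2 was at 178 and 203 CPM in the DMSO libraries, 106 and 117 CPM under compound 4, 95.3 and 144 CPM under compound 5 and 118 and 132 CPM under compound 6. Its libraries were below DMSO for all compounds, and it fell under compound 4 (log2-fold change −0.77 ± 0.18 (SE), adjusted p = 0.027) and compound 5 (log2-fold change −0.67 ± 0.18 (SE), adjusted p = 0.047), while compound 6 did not pass (log2-fold change −0.61 ± 0.18 (SE), adjusted p = 0.12). In fits of only the 4 libraries compared the adjusted p of PCYT2 was 0.078 for compound 5 and 0.014 for compound 6, and with DESeq2 it was 0.015 for compound 6.

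Of 8 transcription factors and coactivators of the pathway, 2 passed under compound 4 and 3 under compound 5. MLXIPL, which encodes the glucose-responsive factor ChREBP, was at 139 and 141 CPM in the DMSO libraries, 100.2 and 91.4 CPM under compound 4, 93.3 and 106 CPM under compound 5 and 142 and 139 CPM under compound 6. It fell under compound 4 (log2-fold change −0.55 ± 0.11 (SE), adjusted p = 0.016) and compound 5 (log2-fold change −0.49 ± 0.11 (SE), adjusted p = 0.026), and the compound 6 libraries overlapped with DMSO (0.00, 95% confidence interval from −0.23 to 0.24). MLX, the partner of ChREBP, rose under compound 5 (log2-fold change 0.62 ± 0.13 (SE), adjusted p = 0.025). PPARG, a nuclear receptor of lipid storage, rose under compound 4 (log2-fold change 0.88 ± 0.18 (SE), adjusted p = 0.018), with adjusted p = 0.061 under compound 5, or 0.044 with DESeq2. PPARGC1A, a coactivator of fasting metabolism, rose under compound 5 (log2-fold change 0.89 ± 0.18 (SE), adjusted p = 0.022), with adjusted p = 0.058 under compound 4. Under compound 4 it passed when blocked on the replicate number (adjusted p = 0.038), with DESeq2 (0.026) and in the fit of only the 4 libraries compared (0.02), and in the same kind of fit its adjusted p under compound 5 was 0.052.

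The counts of the wider genes changed without single libraries. In each fit named here, the calls over all genes moved in the same direction as those of the wider genes. Under compound 4 the 9 calls became 1 and 0 without DMSO replicates 1 and 2, 6 and 0 without compound 4 replicates 1 and 2, and 6 without either compound 6 library. Under compound 5 the 10 calls became 0 without either DMSO library or compound 5 replicate 1, 7 without either compound 6 library and 11 without compound 5 replicate 2.

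**Figure D4:**
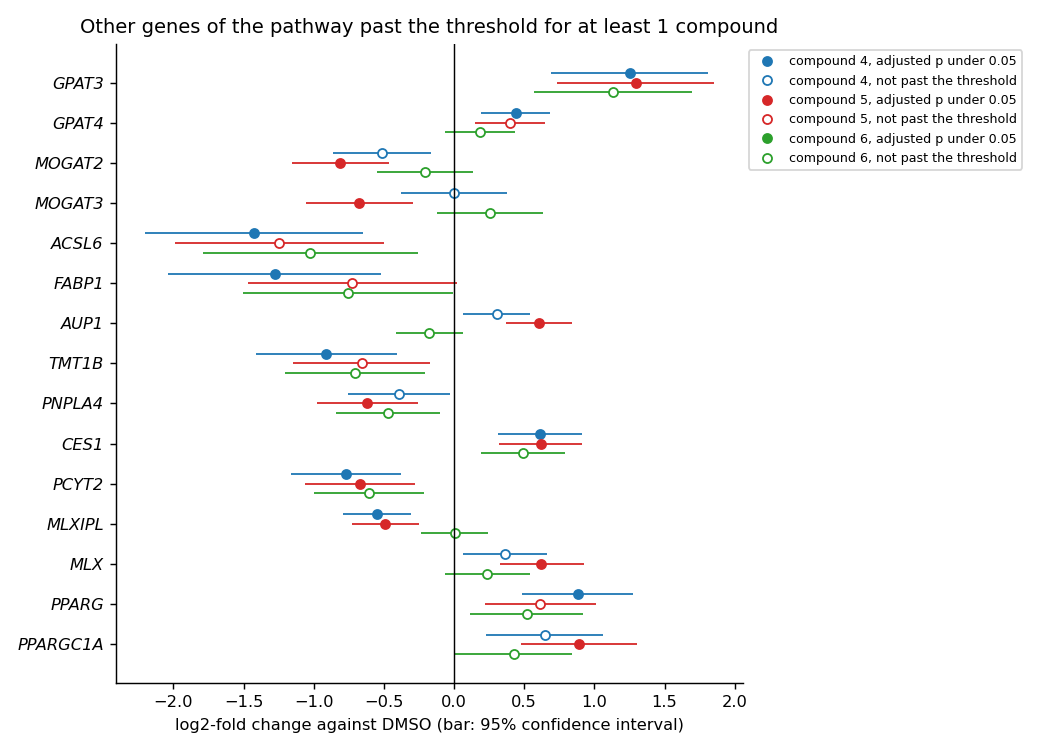
Log2-fold change against DMSO (horizontal axis) of the 15 further pathway genes that passed the threshold for at least 1 compound, with 95% confidence intervals as bars; filled points passed an adjusted p of 0.05. GPAT3, CES1, PCYT2 and MLXIPL are filled for both compound 4 and compound 5, and the MLXIPL point of compound 6 lies at 0.00.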

How the data were processed

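RNA was sequenced on an Illumina instrument from libraries made with a directional kit, with 2 libraries in each of 4 groups. The authors checked the reads with FastQC 0.12.0, estimated transcript counts with Salmon 1.5.0 on a GENCODE 38 index of GRCh38, summarized them to genes with tximeta, and deposited the expected counts as whole numbers without normalization. They ran their own tests with DESeq2 1.38.3, whose results were not used. Whether the quantification used the strand is not given in the sources used here.

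From these counts, normalization factors (0.945 to 1.04) were computed with TMM in edgeR 4.0.16 (R 4.3.3), low genes were removed with filterByExpr (minimum count 10), and the quasi-likelihood test was applied to the remaining 13400 of 60230 genes, in 1 fit that held all 8 libraries and had no block. Benjamini-Hochberg adjustment ran over all tested genes of a comparison, with a threshold of 0.05. The SE was taken as the absolute log2-fold change divided by the square root of the F statistic of the test. The 95% confidence intervals were built from this SE and a t quantile. CPM used the same factors. All 10 genes were named, with every further pathway gene past the threshold against DMSO. The genes, lists and tests were chosen with earlier results of these data known. Symbols matched 60089 identifiers; positions are from GENCODE 29, which uses the same assembly (TMT1B is METTL7B there). Levels per kb used the union of its exons.

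The alternatives were DESeq2 1.42.0, its size factors, the replicate number as a block, no filter, 10 counts in every library, only the 4 libraries compared, and leaving out each of 8 libraries. The pairing by replicate number comes from the day in the labels. The difference between replicates correlated between groups by −0.16 to 0.30 across genes, which are not independent. Permutations of 2 against 2 libraries cannot reach the threshold. Intervals and floors for counts cover counting error only. The figures were made with matplotlib 3.10.9.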

Additional observations from a re-analysis of the deposited data

How the results depend on the processing

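The counts of the 10 genes were 6 under compound 4 and 5 under compound 5 in every setting that kept all libraries, and the replicate block changed no call of the 10 genes other than PLIN2 in compound 6 against compound 5. Without 1 library the counts were between 0 and 6 for compound 4 and between 1 and 6 for compound 5, in fits that assume a lone library to vary like the other groups. For compound 6 the 0 genes became 2 with DESeq2 (DGAT1 and LPIN2), 3 without a filter and 3 in the fit of only 4 libraries (DGAT1, LPIN2 and PNPLA3). The main fit held all groups, and the mean chi-square per gene between replicates was 8.69 in DMSO. It was 14.5, 19.7 and 8.42 under compounds 4, 5 and 6. Without compound 5 replicate 1, the log2-fold changes under compound 6 were 0.673 for LPIN2, −0.756 for DGAT1 and −0.815 for PNPLA3. The part of this spread in the compound 6 calls was not tested. Over all genes the 77 calls became 518 with DESeq2, 1355 without a filter and 47 with DESeq2's size factors. In the fit of only 4 libraries they became 1023 of 12998 genes. Between compounds, 4 against 5 gave 2 genes without a filter, beside 750 of all genes. The pair 4 against 6 gave 3 with DESeq2 and 3 without a filter, beside 60 and 259 of all genes. The pair 6 against 5 gave 4 with DESeq2, 4 without a filter and 2 with the replicate block, beside 370, 990 and 269 of all genes. Without a filter, 2383, 2431 and 1355 of all genes passed under compounds 4, 5 and 6. Of the further pathway genes, 15, 18 and 9 passed without a filter, against 9, 10 and 0 with it. For compound 6, 3 passed with DESeq2 and 7 in the fit of 4 libraries. Without 1 library the ranges were 0 to 10, 0 to 11 and 0 to 4. With the block, these counts were 13, 12 and 0, beside 1699, 1429 and 68 of all genes. The added calls were MOGAT2, PPARGC1A, SLC27A4 and SLC27A5 under compound 4 and CIDEB and GPAT4 under compound 5. The cause was not tested.

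Changes of sign occurred only for values that did not pass the threshold. Without 1 library, AGPAT2 ranged from −0.039 to 0.71 under compound 4, −0.19 to 0.55 under compound 5 and −0.17 to 0.57 under compound 6 on the log2 scale. LPIN1 ranged from −0.22 to 0.022 under compound 5 and −0.076 to 0.15 under compound 6, MOGAT3 from −0.20 to 0.17 under compound 4, PNPLA2 from −0.10 to 0.35 and PLIN2 from −0.10 to 0.19 under compound 6. Between compounds 4 and 5, LPIN2 ranged from −0.35 to 0.19, PNPLA3 from −0.53 to 0.54 and PLIN2 from −0.24 to 0.19. LPIN2 ranged from −0.056 to 0.29 between compounds 4 and 6 and from −0.47 to 0.059 between compounds 6 and 5, where DGAT1 ranged from −0.60 to 0.023. MLXIPL under compound 6 was −0.009 with DESeq2, with its size factors and without a filter, −0.005 with 10 counts in every library, −0.015 in the fit of 4 libraries, and −0.023 to 0.024 without 1 library. Of 558 values of single genes under the settings other than leaving out 1 library in turn, 493 held their direction and side of the threshold. Of 744 without 1 library, 585 did.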
